A study of Rattus norvegicus with 54 samples.

Results

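Tetrahydrobiopterin is the pterin cofactor that lets neurons make dopamine, serotonin and nitric oxide. The genes described here are the 6 whose products make it, restrain its synthesis or recycle it: Gch1, Pts, Spr, Gchfr, Pcbd1 and Qdpr. They were found by name among the 45785 named rows of a count table of 54 libraries, and all 6 had 1 row each. The set was proposed with the rise of Qdpr between adolescent and adult control rats already known. Values of that age comparison in controls are therefore given as a description, without a test, and the tests below use other comparisons.

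Synthesis starts from GTP. GTP cyclohydrolase 1 (Gch1) takes the rate-limiting step, 6-pyruvoyltetrahydropterin synthase (Pts) follows, and sepiapterin reductase (Spr) finishes the molecule. The GTP cyclohydrolase feedback regulator (Gchfr) binds the cyclohydrolase and passes on inhibition by the finished cofactor. Each time an aromatic amino acid hydroxylase uses the cofactor, it is oxidized. Pterin carbinolamine dehydratase (Pcbd1) and then quinoid dihydropteridine reductase (Qdpr) turn it back into its active form. In people, inherited loss of the enzymes encoded by Gch1, Pts, Spr or Qdpr can deplete brain dopamine and serotonin. In brain, Qdpr RNA is known to be abundant in oligodendrocytes, the cells that make myelin.

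The tissue was the nucleus accumbens, the ventral striatal region that handles reward, taken from male and female Long Evans rats and profiled as bulk total RNA. Controls came from dams on a free-choice liquid diet (FCL) and received water in adolescence (VEH). Exposed rats had prenatal ethanol (PAE), and were given water (PAE-VEH) if sampled as adolescents or alcohol in adolescence (PAE-AAE) if sampled as adults. Adolescent brains were collected on postnatal day 42 (P42), when 24 h had passed since the final exposure. Adult brains were collected on P90, with no such interval given. Males gave 9 control and 9 PAE-VEH libraries at P42, then 6 control and 6 PAE-AAE libraries at P90. Females gave 7 control and 4 PAE-VEH libraries at P42, then 8 control and 5 PAE-AAE libraries at P90. In exposed rats, age and adolescent alcohol come together and cannot be told apart, and at P90 the prenatal and adolescent exposures cannot be told apart either.

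Depth was 59.1 to 103.8 M counts per library. Levels are given in CPM, counts scaled to a common library total with TMM factors, and changes as log2 fold changes ± SE. The spiny neuron markers of the striatum were abundant in every library (Rgs9 at 83.2 to 483 CPM, Tac1 at 59.8 to 253 CPM). Markers of other cells differed widely between libraries. Slc17a7, of cortical excitatory neurons, ran from 4.15 to 1185 CPM. Ttr, of choroid plexus, ran from 3.08 to 3759 CPM, and Foxj1, of ependyma, from 3.38 to 179.5 CPM. Libraries are numbered within a group in accession order. In 3 libraries, all from P42, the RNA of X- and Y-linked genes went against the labelled sex: control male replicate 8, control female replicate 5 and PAE-VEH male replicate 5. Another 3 stood apart from the rest on the main axes of variation: PAE-VEH male replicate 6 at P42, and control male replicate 6 and control female replicate 1 at P90. The labels do not say which libraries share a litter, so p-values measure the spread between these libraries only.

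Qdpr lies on rat chromosome 14, from 69882776 to 69896378 on the plus strand, in the coordinates of the deposited table, which match assembly GRCr8. The 250 bases just upstream of its start (RefSeq, GRCr8, chr14:69882526-69882775, plus strand) are shown because Qdpr is the gene whose level changed most below; capitals mark each match to the GC box GGGCGG, the letters bound by Sp1-type factors.

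Qdpr upstream window: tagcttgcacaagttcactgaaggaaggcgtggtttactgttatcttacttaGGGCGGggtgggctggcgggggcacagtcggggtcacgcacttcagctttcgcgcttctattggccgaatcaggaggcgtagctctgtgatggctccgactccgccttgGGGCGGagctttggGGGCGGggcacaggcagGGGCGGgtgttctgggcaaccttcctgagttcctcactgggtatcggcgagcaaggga

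The window held 4 GC boxes. Counting both strands (GGGCGG or CCGCCC), at least 1 match was present in 30.5% of the 33469 windows of this length in the table, and at least 4 in 3.67%. The CCAAT box (CCAAT or ATTGG) matched once in the Qdpr window and was present in 34.0% of all windows. The windows just upstream of the other starts held 2 GC boxes for Gch1 and Gchfr and none for Pts; those of Spr and Pcbd1 do not end at the gene start of the deposited table and were left out. These are matches of letters, and binding was not measured.

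Per length, Qdpr far exceeded the synthetic enzymes and Pcbd1, the other recycling enzyme. In the deposited FPKM values, Qdpr had a median of 81.97 over the 54 libraries, Spr 12.8, Pcbd1 6.53, Pts 5.51, Gchfr 3.81 and Gch1 0.295. Qdpr was the highest of the 6 in all 54 libraries, and its lowest library (49.2 FPKM) was above the highest for Spr (19.8 FPKM). Gch1, which controls the pace of synthesis, was the lowest in all 54 libraries, with 3 to 65 counts each. The order Spr over Pcbd1 held in 53 libraries, Pts over Gchfr in 48 and Gchfr over Gch1 in 54. Pcbd1 exceeded Pts in only 37 of 54, so these neighbours overlapped.

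In control males Qdpr ran from 70.9 to 107.7 CPM at P42 (median 82.97, n = 9) and from 137.7 to 437.5 CPM at P90 (median 226.8, n = 6). The groups did not overlap. In this comparison 0.636% of all genes tested had groups that did not overlap, and Qdpr was the single member among them. In control females it ran from 64.5 to 141.6 CPM at P42 (median 68.6, n = 7) and from 124.7 to 432.1 CPM at P90 (median 168.3, n = 8), where the highest adolescent overlapped the lowest adults. The fitted difference was 1.65 ± 0.24 in males and 1.30 ± 0.24 in females. Without the outlying libraries it was 1.52 ± 0.21 and 1.05 ± 0.21. Since these contrasts chose the gene, nothing is read from their size.

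**Figure D1:**
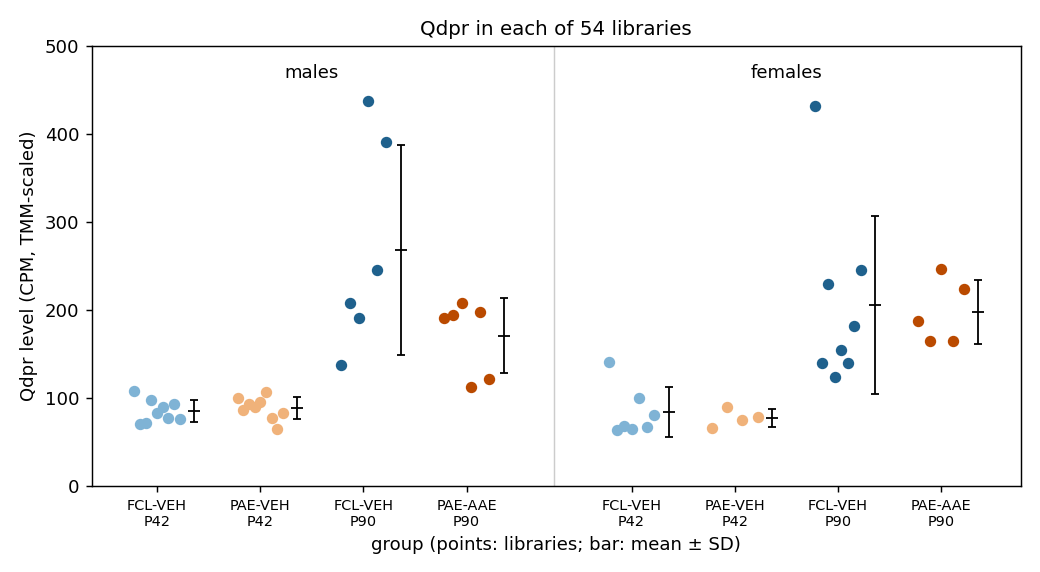
Qdpr level in CPM (linear axis from 0) in every library, by group, with males on the left and females on the right; points are libraries and bars are the group mean ± SD. Adults sit above adolescents in each sex and exposure class, with overlap only in control females, where P42 reaches 141.6 CPM and P90 starts at 124.7 CPM.

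The exposed rats share no library with the controls, and there the rise of Qdpr was tested. In males the 9 PAE-VEH libraries at P42 ran from 64.6 to 107.6 CPM (median 90.4), and the 6 PAE-AAE libraries at P90 from 112.4 to 208.6 CPM (median 192.6). In females the 4 PAE-VEH libraries at P42 held 66.3, 75.6, 79.2 and 90.5 CPM, and the 5 PAE-AAE libraries at P90 held 164.7, 164.9, 187.9, 224.6 and 246.7 CPM. Neither sex showed any overlap between ages. Qdpr rose by 0.94 ± 0.13 in males (1.92-fold, edgeR adjusted p = 0.00179, 6 of 6 adults above the adolescent median). It rose by 1.34 ± 0.18 in females (2.53-fold, adjusted p = 0.000457, 5 of 5). In males 1 of the 6 members passed the threshold, against 0.284% of the 24337 genes tested, and 0.325% of those genes had groups that did not overlap. In females 1 of 6 passed, against 2.17% of genes, and with these 4 and 5 libraries 9.33% of genes had groups that did not overlap.

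The rise in exposed rats passed the threshold in each alternative tried. Leaving out the library with discordant sex genes gave 0.96 ± 0.14 in males and 1.34 ± 0.18 in females. Leaving out the outlying library gave 0.98 ± 0.13 and 1.34 ± 0.17. Both of these libraries are PAE-VEH males, so no female library was removed and the female values say little about the female libraries. With 1 female library left out at a time, the female value ranged from 1.25 to 1.42 and passed in all 9 fits, while the number of all genes passing ranged from 74 to 469 against 529 with every library. The rise was 0.40 larger in females than in males (SE 0.22, 95% interval -0.06 to 0.85), a difference that did not pass (adjusted p = 0.371). For that difference 1.84% of genes passed, 449 in all, and none did without PAE-VEH female replicate 1 or PAE-AAE female replicate 1 or 5.

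Within groups Qdpr followed the oligodendrocyte genes closely, while none of those genes passed the threshold as higher at P90 in exposed rats. A score was made of 10 mature oligodendrocyte genes, among them the myelin gene Mbp, as the mean of their centred log2 CPM; Qdpr is not in it. Within groups, over 54 libraries, the score and Qdpr had a Pearson r of 0.88 and a Spearman rho of 0.86. Both permutation p-values were 1e-05, the smallest that 100000 permutations can give, and 2e-05 after adjustment over the 4 scores related to Qdpr. The r was 0.85 without the 2 libraries farthest from the median score, 0.78 over the adolescent libraries and 0.95 over the adult libraries. All 10 of the genes ran with Qdpr, from an r of 0.79 for Opalin to 0.92 for Cnp.

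With the score of oligodendrocyte precursors and newly forming oligodendrocytes, r was 0.72 (rho 0.67, adjusted p = 2e-05 by permutation). The astrocyte score gave 0.43 (rho 0.34, permutation adjusted p = 0.0129), and the spiny neuron score gave -0.35 (rho -0.29, permutation adjusted p = 0.0428). Without the 2 farthest libraries the astrocyte value was 0.38 and the spiny neuron value -0.17, so the latter depended in part on those libraries. The spiny neuron r was -0.43 over the adolescent libraries and -0.32 over the adult libraries. Its rho did not pass (permutation adjusted p = 0.0675). In bulk tissue, fewer cells of a type and less RNA per cell cannot be told apart.

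Between the ages, most of the same 10 oligodendrocyte genes tended the other way or showed little difference. In exposed males all 10 had log2 changes below 0, with a median of -0.50. None passed with edgeR, where 8 had an unadjusted p under 0.05, and 3 passed with DESeq2 and 1 with voom, all lower at P90. Cldn11, a tight junction protein of myelin, was among those that passed with DESeq2, at -0.77 ± 0.17 (DESeq2 adjusted p = 0.00173), as was Cnp, at -0.61 ± 0.15 (DESeq2 adjusted p = 0.0105). In exposed females 6 of 10 were below 0, with a median of -0.15. None passed with edgeR, DESeq2 or voom, and 2 had an unadjusted p under 0.05. The highest of the 10 there was Ermn, at 0.45 ± 0.23 (edgeR unadjusted p = 0.0647, adjusted p = 0.34). The median over all genes tested was 0.00 and -0.01. In controls their median was -0.01 in males and -0.56 in females. The summed level of the 10 genes ran from 8341 to 30900 CPM over the P42 groups and from 6685 to 31960 CPM over the P90 groups. Its mean at P42 was 16430 and 16000 CPM in control and exposed males, and 15960 and 12670 CPM in control and exposed females. At P90 it was 17390 and 10530 CPM in control and exposed males, and 10070 and 11540 CPM in control and exposed females.

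Some other marker lists also lay mostly on 1 side of 0 between the ages of exposed rats. In males the cortical excitatory neuron markers were below 0 in 5 of 5 (median -1.36), those of oligodendrocyte precursors and newly forming cells below 0 in 7 of 7 (-0.16, 1 of them past the threshold), and the endothelium markers above 0 in 5 of 6 (0.32). In females the choroid plexus markers were above 0 in 7 of 7 (0.82), the astrocyte markers above 0 in 8 of 8 (0.32, 1 of them past the threshold) and the spiny neuron markers below 0 in 10 of 10 (-0.33). Their part in the Qdpr rise was not tested.

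With the oligodendrocyte score as a term in the fit, the Qdpr rise in exposed rats was 1.22 ± 0.10 in males (adjusted p = 3.33e-07) and 1.41 ± 0.12 in females (adjusted p = 4.37e-07). In controls the fitted values were 1.60 ± 0.10 and 1.66 ± 0.11. The standard errors were smaller than without the term. The mean score itself was 0.21 at P42 and -0.28 at P90 in exposed males, and -0.11 and -0.26 in exposed females. It measures RNA and not cell number, and the part of oligodendrocytes in the Qdpr rise was not tested.

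**Figure D2:**
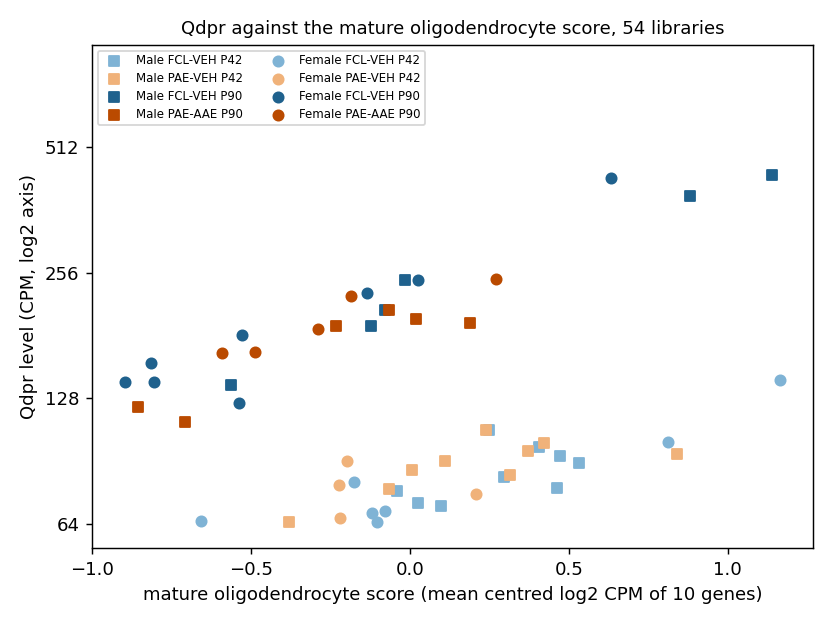
Qdpr level in CPM (log2 axis) against the mature oligodendrocyte score (mean centred log2 CPM of 10 genes) in 54 libraries; colours give exposure and age, squares are males and circles females. Within each age Qdpr climbs with the score; over all scores the P42 libraries reach up to 141.6 CPM and the P90 libraries start at 112.4 CPM, so the ages overlap between those levels.

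The 8 genes whose level within groups was most like that of Qdpr, among the 14469 others compared, had r values of 0.91 to 0.92 over the 54 libraries. They were Car2 (a carbonic anhydrase), Csrp1 (a LIM-domain protein), Dennd5a (an activator of Rab GTPases), Lap3 (a leucine aminopeptidase), Cnp (a myelin phosphodiesterase), Olig1 (a transcription factor of the oligodendrocyte lineage), Apod (a lipid carrier) and Rap1a (a small GTPase). Between ages none of the 8 genes rose by as much as Qdpr, and their directions were mixed. In exposed males the log2 change was 0.94 for Qdpr and between -0.61 (Cnp) and 0.16 (Lap3) for the 8 genes, and in exposed females it was 1.34 for Qdpr and between -0.27 (Cnp) and 0.50 (Car2). In control males it was 1.65 for Qdpr and between -0.06 (Cnp) and 0.70 (Car2) for the 8 genes. In control females it was 1.30 for Qdpr and between -0.58 (Cnp) and 0.24 (Csrp1). Car2, Csrp1 and Lap3 were above 0 in every age comparison, Cnp was below 0 in every one, and the others changed sign between them. No test of these 8 was made, since they were picked by their likeness.

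Among the enzymes of synthesis, Pts ran from 4.73 to 10.8 CPM over all libraries and Spr from 12.5 to 26.9 CPM. In exposed rats Pts differed between ages by -0.17 ± 0.12 in males and 0.30 ± 0.15 in females, and neither passed (adjusted p = 0.67 and 0.318).

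Spr, the last enzyme of synthesis, came nearest to a change after Qdpr. In exposed females it held 13.4, 15.9, 17.0 and 18.4 CPM at P42, and 18.8, 21.5, 22.4, 22.6 and 22.8 CPM at P90. The ages did not overlap, which was so for 9.33% of the genes tested, Qdpr and Spr being the 2 members among them. The difference was 0.42 ± 0.13 (adjusted p = 0.0844) and did not pass. It passed with DESeq2 (adjusted p = 0.0283), with voom (0.0153) and without the outlying library (0.0421). That library is PAE-VEH male replicate 6, so the female difference stayed at 0.42, with an SE of 0.12 in place of 0.13. In exposed males Spr ran from 15.9 to 23.3 CPM at P42 and from 14.1 to 20.2 CPM at P90, a difference of -0.08 ± 0.10. The females exceeded the males by 0.50 ± 0.16 (adjusted p = 0.0958), which passed with DESeq2 (0.0433) and voom (0.0423).

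Gch1 had few counts in every library. Its group means lay between 0.19 ± 0.07 CPM (SD, n = 5) in PAE-AAE females and 0.37 ± 0.20 CPM (SD, n = 8) in control females at P90. The difference between ages in exposed rats was -0.60 ± 0.40 in males and -0.59 ± 0.51 in females. In females the 95% interval ran from -1.65 to 0.47, over 4 libraries with 15 to 25 counts at P42 and 5 with 8 to 22 counts at P90.

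Gchfr, the brake on Gch1, was higher at P90 than at P42 in each of the 4 age comparisons. Its mean was 2.66 ± 0.45 CPM against 1.95 ± 0.36 in control males and 2.88 ± 0.59 against 2.23 ± 0.54 in control females. In exposed males it was 2.65 ± 0.92 against 2.09 ± 0.74 CPM, and in exposed females 3.34 ± 0.82 against 2.05 ± 0.73 CPM, with overlap in both. The tested differences were 0.35 ± 0.26 (adjusted p = 0.692) and 0.70 ± 0.34 (adjusted p = 0.303), and neither passed.

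Pcbd1, the partner of Qdpr in recycling and also a cofactor of the transcription factor HNF1, was spread widely in control females at P90, which ran from 3.61 to 30.4 CPM (median 11.6). In exposed rats the difference between ages was -0.23 ± 0.24 in males and 0.48 ± 0.31 in females, and neither passed (adjusted p = 0.808 and 0.474).

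**Figure D3:**
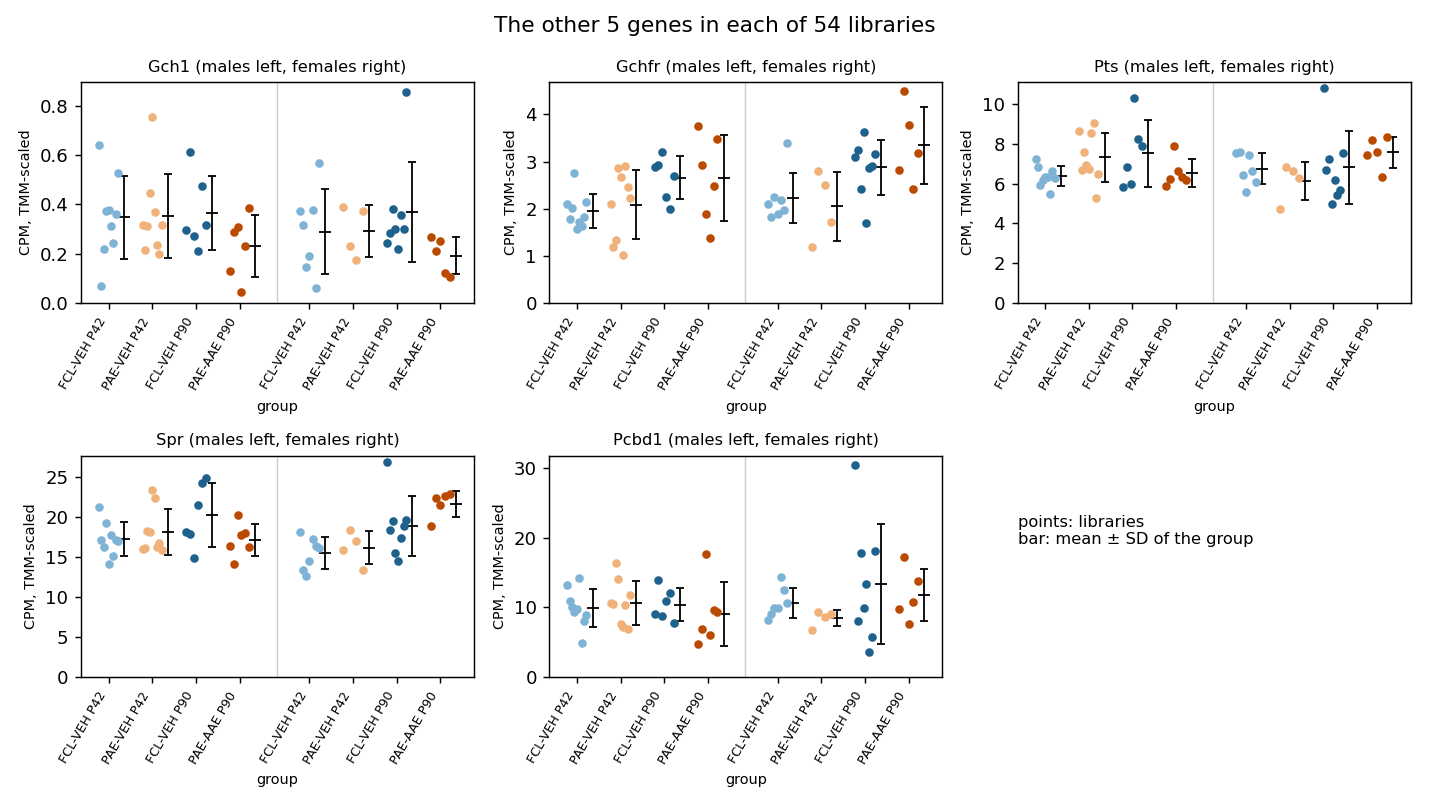
Levels in CPM (linear axes from 0) of the other 5 genes in every library, by group, males left and females right in each panel; points are libraries and bars are the group mean ± SD. Groups overlap in nearly every panel. In that of Spr the PAE-AAE females at P90 (18.8 to 22.8 CPM) sit above both female groups at P42. These are the PAE-VEH females (13.4 to 18.4 CPM) and the control females (12.5 to 18.1 CPM).

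Within groups, 4 of the 15 pairs of members had related levels after adjustment over the 15 pairs. Qdpr ran with Pts (r = 0.71, rho = 0.61) and with Spr (r = 0.62, rho = 0.60), each with a permutation adjusted p = 0.00015. Pts ran with Spr (r = 0.54, rho = 0.51, permutation adjusted p = 0.00217) and with Pcbd1 (r = 0.54, rho = 0.44, permutation adjusted p = 0.00155). Without the 2 libraries farthest from the median of the first gene named, the values of r were 0.59, 0.56, 0.44 and 0.46. In the same order, r was 0.52, 0.60, 0.25 and 0.32 over the adolescent libraries. Over the adult libraries it was 0.80, 0.66, 0.75 and 0.65, so the relations of Pts with Spr and Pcbd1 were weaker at P42. For Gchfr, r with the other members lay between -0.07 and 0.25, and none of its pairs passed. For Qdpr with Pcbd1, the successive enzymes of recycling, r was 0.35 (rho 0.28, permutation adjusted p = 0.123).

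The genes most like the others within groups differed from those of Qdpr. They were Tmed3, Ywhaq and Ppt1 for Pts (r of 0.79 to 0.81) and Ppa1, C12h12orf43 and Ndufa5 for Spr (0.81 to 0.82). For Pcbd1 they were Htr7, a serotonin receptor, Pnck, a kinase, and Pnoc, the precursor of nociceptin (0.89 to 0.92). Gch1 (Atmin-ps2, Cdv3 and Fasn, 0.50 to 0.55) and Gchfr (Ift70b, Smim22 and Pcdhgc3, 0.47 to 0.55) had no gene as close.

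Alcohol exposure was compared with control within each age. At P42 none of the 6 members passed in males, in females, in their mean or in the difference between the sexes, where 0.0% of 24741 genes passed with edgeR in each. Among the members only Pts had an unadjusted p under 0.05, in males and in the difference, and none passed with DESeq2 or voom. Over all genes, an unadjusted p under 0.05 was found for 2217, 2786, 2698 and 2617 genes; with DESeq2 13, 64, 19 and 38 genes passed and with voom 1, 36, 0 and 81. Qdpr in PAE-VEH rats differed from controls by 0.06 ± 0.13 in males (95% interval -0.20 to 0.32) and by -0.11 ± 0.17 in females (-0.46 to 0.23). Pts stood 0.20 ± 0.10 higher in PAE-VEH males (unadjusted p = 0.0464, adjusted p = 0.547), with 8 of 9 libraries above the control median.

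At P90 none of the 6 passed either, with edgeR, DESeq2 or voom. In males, in females and in the difference between the sexes 0.0% of 24018 genes passed with edgeR (2100, 1015 and 2544 at an unadjusted p under 0.05; 3, 7 and 1 with DESeq2; 1, 1 and 0 with voom), and for the mean over the sexes 0.00416% did. Qdpr in PAE-AAE males differed from control males by -0.65 ± 0.28 (unadjusted p = 0.029, adjusted p = 0.553, 95% interval -1.24 to -0.07), with 0 of 6 libraries above the control median. The mature oligodendrocyte genes lay lower in the same males, 10 of 10 with a median of -0.55, against 0.01 over all genes; 4 had an unadjusted p under 0.05 and none passed with edgeR, DESeq2 or voom. Other marker lists also lay on 1 side of 0 in these males, with no gene of them past the threshold in edgeR. Microglia (6 of 6, median -0.44), astrocyte (8 of 8, -0.24), choroid plexus (7 of 7, -0.76), ependyma (6 of 6, -0.24) and cortical excitatory neuron markers (5 of 5, -0.85) were below 0, and endothelium markers (6 of 6, 0.34) above it. Their part in the Qdpr difference was not tested. With the oligodendrocyte score in the fit that difference was -0.11 ± 0.10, and the part of oligodendrocytes in it was not tested either. In females Qdpr differed by -0.06 ± 0.28 (95% interval -0.63 to 0.52), and 8 of the 10 oligodendrocyte genes were above 0 with a median of 0.02.

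Gch1 was lower in PAE-AAE rats of both sexes, by value only. Its difference was -0.65 ± 0.45 in males and -0.93 ± 0.45 in females, where 0 of 5 libraries were above the control median, and the mean over the sexes was -0.79 ± 0.32 (unadjusted p = 0.02, adjusted p = 1.0). Spr differed by -0.25 ± 0.13 in males and 0.20 ± 0.13 in females, and the difference between the sexes was 0.45 ± 0.18 (unadjusted p = 0.0233, adjusted p = 0.427). Gchfr and Pcbd1 differed by at most 0.22 in size in either sex at P90.

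**Figure D4:**
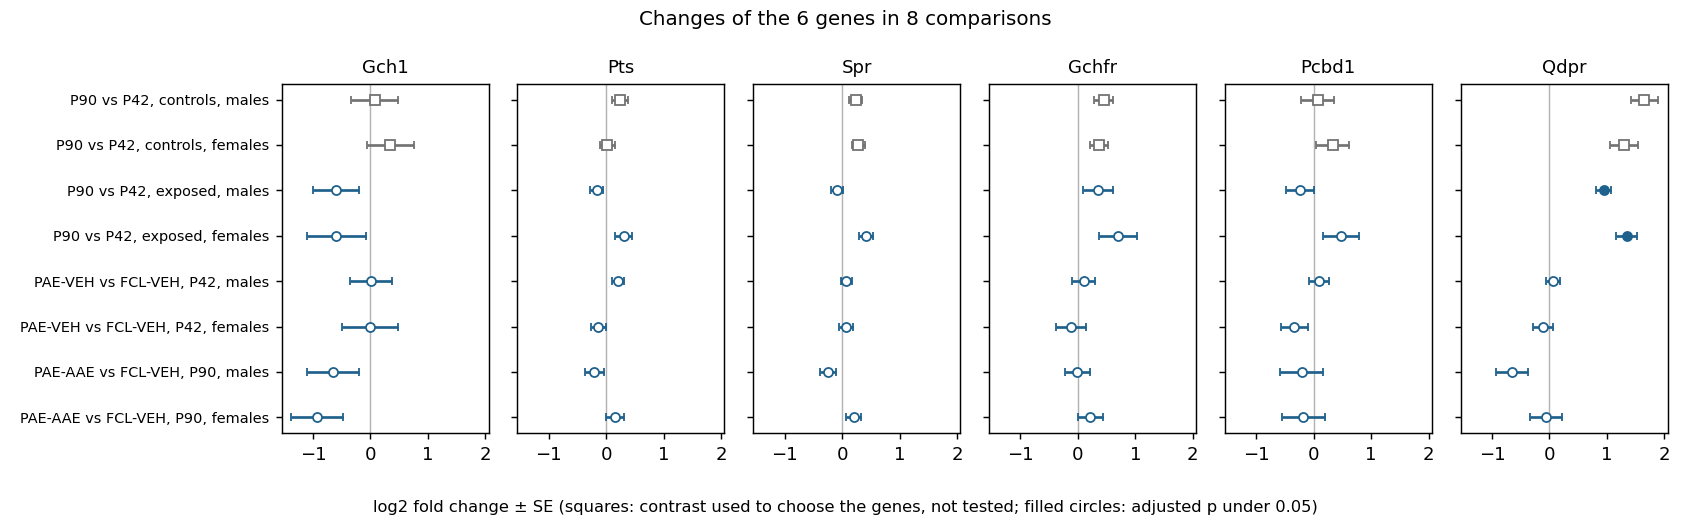
Log2 fold change ± SE of each gene in 8 comparisons; squares mark the control age contrast that was known when the genes were chosen and was not tested, circles the tested contrasts, and filled circles an adjusted p under 0.05. The 2 filled circles are Qdpr at P90 against P42 in exposed males (0.94) and exposed females (1.34).

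Between control females and control males, no member passed at either age with edgeR, DESeq2 or voom, or had an unadjusted p under 0.05. At P42 0.0% of genes passed with edgeR (1464 at an unadjusted p under 0.05; 6 with DESeq2, 7 with voom, and 13 without the libraries with discordant sex genes), and at P90 0.0499% did. Qdpr in females differed from males by -0.02 ± 0.23 at P42 and by -0.38 ± 0.25 at P90 (95% interval -0.89 to 0.13). At P90 the 10 oligodendrocyte genes were all lower by value in females, with a median of -0.58, and with their score in the fit the Qdpr difference was 0.12 ± 0.11. The choroid plexus markers were below 0 in 7 of 7 (median -1.55) and the cortical excitatory neuron markers above 0 in 5 of 5 (0.75) in the same comparison. The part of any of these cell types in the Qdpr difference was not tested.

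The enzymes that use the cofactor and their partners were read from lists of 17 genes. None of the 16 or 17 that could be tested passed with edgeR in any of the 13 tested comparisons, in which 25 of 214 tests (11.7%) had an unadjusted p under 0.05, against 9.55% of the tests over all genes. Dnajc12, a chaperone of the aromatic amino acid hydroxylases, was higher at P90 in exposed females by 0.64 ± 0.18 with DESeq2 (adjusted p = 0.0142) and by 0.67 ± 0.17 with voom (adjusted p = 0.0207), where edgeR gave an adjusted p of 0.0616. Nos1, the neuronal nitric oxide synthase, was the best expressed per length of the users of the cofactor, with a median of 9.83 FPKM, and ran from 64.3 to 149.7 CPM. Th, the tyrosine hydroxylase of dopamine synthesis, had a median of 0.512 FPKM, and Tph2, the tryptophan hydroxylase of serotonin neurons, 0.679 FPKM. Slc6a3, the dopamine transporter that marks dopamine neurons, had a median of 0.03 CPM and was at 0 in its lowest library, as were Pitx3, Slc6a4 and Fev, markers of dopamine and serotonin neurons. The other markers of these neurons were above 0 in every library. Slc18a2 ran from 9.79 to 37.9 CPM, Ddc from 3.16 to 12.3 CPM and Nr4a2 from 2.7 to 61.5 CPM. Tph2 ran from 1.16 to 8.0 CPM and Th from 0.11 to 5.69 CPM. The cell bodies of those neurons lie outside the accumbens, in the midbrain and the raphe.

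Over the lists, the age difference in exposed rats had a median of 0.19 in males and 0.24 in females for the 8 users of the cofactor. It was -0.10 and 0.22 for the 4 salvage and side-branch enzymes, and -0.21 and -0.03 for the 4 monoamine partners tested. Nos1 differed by 0.14 ± 0.11 and 0.17 ± 0.14, and Th by 0.47 ± 0.56 and 0.47 ± 0.73. Ddc, which makes dopamine and serotonin from their amino acid precursors, differed by 0.68 ± 0.21 in exposed males (unadjusted p = 0.00294, adjusted p = 0.212) and -0.24 ± 0.26 in exposed females. At P90, Nos1 stood 0.43 ± 0.13 higher in PAE-AAE males than in control males (unadjusted p = 0.00326, adjusted p = 0.552), and Ddc 0.58 ± 0.21 higher (unadjusted p = 0.0116, adjusted p = 0.552).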

How the data were processed

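The authors deposited 1 table holding, for each library, raw read counts per gene and, per the file headers, FPKM values. Reads passed through fastp and HISAT2 2.0.5, per the submitters' processing notes. The counter and annotation are not named, and the build is not given in the sources used here; 45780 of the 45785 named IDs match GRCr8 positions. The 720 unnamed rows (0.271 to 0.412% of a library's counts) were left out. The libraries carry no strand, per the labels' protocols. None of the 6 genes overlaps another gene in the table.

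Counts were tested with edgeR 4.0.16 in R 4.3.3 (TMM, default filter by group, quasi-likelihood F test, two-sided) in fits of the 29 adolescent, 25 adult, 24 exposed and 30 control libraries. Benjamini-Hochberg adjustment ran over all genes of a comparison, with a threshold of 0.05. FPKM compared levels between genes. Correlations used log2 CPM centred by group and permuted within groups. Alternatives were relative log expression size factors, no filter, DESeq2 1.42.0, voom with quality weights (limma 3.58.1), all 54 libraries in 1 fit, an oligodendrocyte score as covariate, and leaving out libraries. The edgeR step was checked on simulated data.

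The members and lists were chosen with earlier results of these data known. The genes named are the 6 members, the 8 genes most like Qdpr and the 3 most like each other member (mean of at least 1 CPM, no locus identifiers), Th, Tph2, Nos1 and Ddc, pathway genes past the threshold (Dnajc12 was added after its values were seen), and cell type markers. Slc6a3, Pitx3, Slc18a2, Nr4a2, Slc6a4, Fev, Rgs9, Tac1, Slc17a7, Ttr, Foxj1, Mbp, Cldn11, Cnp, Ermn and Opalin are such markers. Some genes of the lists are counted in them but not reported here by name. The labels do not name the animals or litters. Sequences are RefSeq's.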

Additional observations from a re-analysis of the deposited data

Results flagged for a closer look

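Of 48 sets of values (6 genes in 8 groups), 7 had a library far from the rest of its group by Dixon's test at 95%. Chance gives this in about 1 of 20 sets if values are normally distributed and sets independent. Here the values were CPM without a log, all 7 were high, and 3 came from 1 library, so that rate is only a rough guide. Control female replicate 1 at P90, which also stands apart on the main axes of variation, was high for 3 genes: Qdpr at 432.1 CPM with the others at 124.7 to 245.2, Pts at 10.8 CPM with the others at 4.95 to 7.56, and Spr at 26.9 CPM with the others at 14.5 to 19.6. Its mature oligodendrocyte score was the highest of its group, at 0.63. Gch1 stood at 0.756 CPM in PAE-VEH male replicate 5 at P42, a library with discordant sex genes, with the others at 0.198 to 0.444. Gch1 stood at 0.855 CPM in control female replicate 8 at P90, with the others at 0.22 to 0.381. Gchfr stood at 2.76 CPM in control male replicate 4 at P42, with the others at 1.57 to 2.14, and at 3.39 CPM in control female replicate 7 at P42, with the others at 1.82 to 2.25.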

How the results depend on the processing

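The rise of Qdpr in exposed rats kept its direction and passed under all 8 alternatives in males (0.94 to 1.22) and in females (1.33 to 1.41). Its largest adjusted p was 0.0199 in males and 0.0146 in females, with all 54 libraries in 1 fit. Among exposed rats the discordant and the outlying library are both male, so leaving them out removed no female library. In controls the Qdpr difference was 1.52 to 1.69 in males and 1.05 to 1.66 in females, and 1.46 to 1.81 and 1.05 to 1.47 with 1 library left out at a time. Qdpr passed in none of the exposure and sex comparisons under any alternative. The number of members past the threshold in exposed females was 2 in place of 1 with DESeq2, with voom and without outlying libraries, through Spr, and for the difference between the sexes it was 1 in place of 0 with DESeq2 and with voom; the cause was not tested. Over all genes, 529 passed in exposed females against 309 with no filter, 121 with all 54 libraries in 1 fit, 1130 with DESeq2, 1797 with voom and 1198 without the outlying library. The count was 74 and 178 without PAE-VEH female replicates 1 and 2, 246 without replicate 4, and 173, 349 and 181 without PAE-AAE female replicates 1, 2 and 5. For the difference between the sexes, 449 genes passed against 0 without PAE-VEH female replicate 1 or PAE-AAE female replicate 1 or 5, 87 without PAE-VEH female replicate 2 or 4, and 96 without PAE-AAE female replicate 3. In exposed males 69 passed, against 225 with DESeq2, 224 with voom and 212 with the oligodendrocyte score. The r of Qdpr with that score was 0.86 to 0.87 under the other settings. Gch1 had only 3 to 65 counts a library. No paired analysis was possible because the labels give each library an identifier of its own, and no number is shared between groups; the replicate numbers used here follow accession order.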

Other observations

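Lap3, 1 of the 8 genes most like Qdpr within groups (r = 0.92), is also its near neighbour: it lies on chromosome 14 from 69820907 to 69839891 on the minus strand, 42.9 kb from Qdpr. Clrn2, between them and 3.93 kb from Qdpr, had a median of 0 CPM. Med28, 66.7 kb away, had an r of 0.55, and Fam184b, 78.9 kb away, -0.10. Lap3 differed between ages by 0.16 in exposed males and 0.44 in exposed females, and by 0.54 and 0.21 in control males and females. The neighbours were looked at after the likeness of Lap3 was seen, and no test was made.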
